A study of Mus musculus with 103 samples.

Results

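Flavin-containing monooxygenases are enzymes of the endoplasmic reticulum that use bound FAD, NADPH and oxygen to oxygenate the nitrogen or sulfur atoms of amines, thioethers and many drugs. Their genes are known for strong tissue preferences. In the adult mouse, Fmo1 is a kidney and liver form, Fmo2 a lung form, and Fmo5 an enzyme that oxygenates ketones and aldehydes more than amines. The values below are for 4 of these genes, Fmo1, Fmo2, Fmo4 and Fmo5, out of 23339 genes in the table. They were chosen by symbol, with their response to Ctcf deletion already known, because Fmo1, Fmo2 and Fmo4 lie together on chromosome 1 and Fmo5 lies apart on chromosome 3. All 4 were listed in every table. Fmo1, Fmo2 and Fmo5 passed the filter on low values used for testing, and Fmo4 did not. Fmo6 and Fmo9, which also lie on chromosome 1, are given as other genes of the family.

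The cells were mouse embryonic fibroblasts of the C57BL/6 strain, isolated at E13.5, in mid-gestation, and kept quiescent. Polyadenylated RNA was sequenced in 27 libraries of 12 groups, and nascent RNA was measured by global run-on sequencing (GRO-seq), in which engaged polymerases incorporate a bromouridine analog in isolated nuclei. The study asked how CTCF, cohesin and its release factor Wapl shape chromatin and transcription. CTCF is a zinc-finger protein that binds DNA and halts cohesin, Smc3 is a core subunit of cohesin, and Wapl removes cohesin from chromatin. Wild-type cells (clones 2 and 3), Ctcf fl/fl cells (clones 1 and 2) and Ctcf fl/fl Wapl fl/fl cells (clones 3 and 4) were compared without and with an adenovirus that expresses Cre (Adeno-Cre, 4 h). Cells with a Cre-ER recombinase at Rosa26 and no floxed gene (clones 2 and 3), Smc3 floxed cells with Rosa26 Cre-ER (clone 1 fl/fl, clones 2 to 4 fl/-) and Wapl fl/- cells with Rosa26 Cre-ER (clones 1 and 2) were compared without and with 4-hydroxytamoxifen (OHT, 2 to 3 d). The cells were then rested for 10 d. The fl/- clones had already lost 1 allele before OHT, and the Adeno-Cre arm of the Ctcf and Wapl cells had 1 library, from clone 4, in this table. The wild-type pair and the Cre-ER pair show what each inducing agent does when no gene is floxed. For GRO-seq, Ctcf Wapl fl/fl cells (clones 1 and 2) were compared without and with Adeno-Cre. Wild-type cells without and with Adeno-Cre and Rosa26 Cre-ER cells without and with OHT (clone 1 of each) also had GRO-seq libraries. Adeno-Cre treated Ctcf Wapl fl/fl cells also received the elongation blocker DRB for 3.5 h. There was 1 library without and 1 with a following 1 d without DRB.

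Between 7.72 M and 38.63 M reads per library fell in genes. The 9 fibroblast markers summed to between 6619 and 17105 RPKM (reads scaled to gene length and to library size) per library. The 5 hepatocyte markers together summed to at most 1.18 RPKM, with Hnf4a at 0 in 26 of 27 libraries. Ctcf mRNA averaged 12.4 RPKM in untreated and 4.13 RPKM in Adeno-Cre treated Ctcf fl/fl cells, and Wapal, the gene of Wapl, averaged 1.64 and 0.847 RPKM in Wapl cells without and with OHT. Smc3 mRNA averaged 9.53 RPKM in untreated and 11.6 RPKM in OHT-treated Smc3 floxed cells. The treated libraries are therefore called "labelled Smc3-deleted" throughout. In bulk libraries, fewer cells of a type and less RNA per cell cannot be told apart.

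Upstream sequences matched in the RefSeq promoter table (GRCm38.p6) for Fmo2, Fmo4 and Fmo5, 3 of the 4 genes. Those of Fmo2 and Fmo5 are shown because Fmo2 had the largest difference after Ctcf deletion among the 4 and Fmo5 stands outside the cluster. Each line holds the 250 bases before a transcription start, 5′ to 3′ on the gene's strand, with CpG dinucleotides in capitals. Fmo2 is at chr1:162898759-162899008 on the minus strand and Fmo5 at chr3:97628769-97629018 on the plus strand.
Fmo2: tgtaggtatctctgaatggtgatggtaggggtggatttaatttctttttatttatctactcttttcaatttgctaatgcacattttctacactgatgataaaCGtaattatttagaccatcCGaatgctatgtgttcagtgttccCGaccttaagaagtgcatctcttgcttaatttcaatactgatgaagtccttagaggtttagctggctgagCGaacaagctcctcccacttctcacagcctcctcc
Fmo5: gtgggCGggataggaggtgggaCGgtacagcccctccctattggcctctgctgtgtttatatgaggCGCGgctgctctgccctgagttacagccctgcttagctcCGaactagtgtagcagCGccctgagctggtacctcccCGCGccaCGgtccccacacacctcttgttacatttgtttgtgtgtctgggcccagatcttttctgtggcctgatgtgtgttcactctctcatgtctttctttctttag

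The Fmo2 window held 4 CpG dinucleotides at 39.6% G and C, and the Fmo5 window 9 at 56.0%. The Fmo4 window, at chr1:162812550-162812799, held 4 at 42.4%. A second Fmo2 start in the table, with its window at chr1:162898494-162898743, held 5. The median over 32851 windows of this length was 6 CpG dinucleotides at 52.4% G and C. Searched on both strands, the letters AGGGGGC from the core of the CTCF motif were in 9.43% of all windows and in none of the Fmo windows. The letters TATAAA were in 12.4% of all windows, once in the Fmo5 window and not in those of Fmo2 and Fmo4. Of the other family genes, the Fmo9 window held them at 2 places and the Fmo6 window at none.

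RPKM is scaled to gene length, so levels can be set side by side. Fmo2 was the most abundant of the 4 by its median, 7.39 RPKM over the 27 libraries (range 0.206 to 22.6). Fmo1 had a median of 3.83 RPKM (0.0909 to 22.6). Fmo5 had a median of 0.784 RPKM (0.363 to 1.39), and reached 1 RPKM in 5 libraries. Fmo4 had a median of 0.110 RPKM (0 to 0.746), was at 0 in 6 libraries and reached 1 RPKM in none. Fmo6 lay between 0.0661 and 0.844 RPKM, and Fmo9 was at 0 in all 27 libraries.

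Among untreated cells the order of the groups differed between Fmo1 and Fmo2. Fmo1 was at 11.6 and 22.6 RPKM in Cre-ER cells, 9.82 and 10.8 in Wapl fl/- cells, and 3.83 to 6.98 in Smc3 floxed cells (median 4.99, 4 libraries). It was at 4.69 and 1.11 RPKM in Ctcf fl/fl cells, 3.13 and 0.368 in Ctcf Wapl fl/fl cells, and 1.44 and 1.15 in wild-type cells. The first 2 groups did not overlap each other or any other untreated group, whereas Smc3 and the groups without Cre-ER overlapped their neighbours in this order. Fmo2 was at 22.6 and 17.0 RPKM in Ctcf fl/fl cells, above every other untreated library. It was at 9.50 and 15.8 RPKM in wild-type, 14.0 and 7.39 in Ctcf Wapl fl/fl, 8.68 and 11.7 in Cre-ER, 3.44 to 13.53 in Smc3 floxed (median 10.1) and 4.19 and 7.30 in Wapl fl/- cells, with each group overlapping the next. How many of all genes separate these untreated groups in the same way was not counted. The genotypes were different clones, so genotype and clone cannot be told apart in these baselines.

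**Figure D1:**
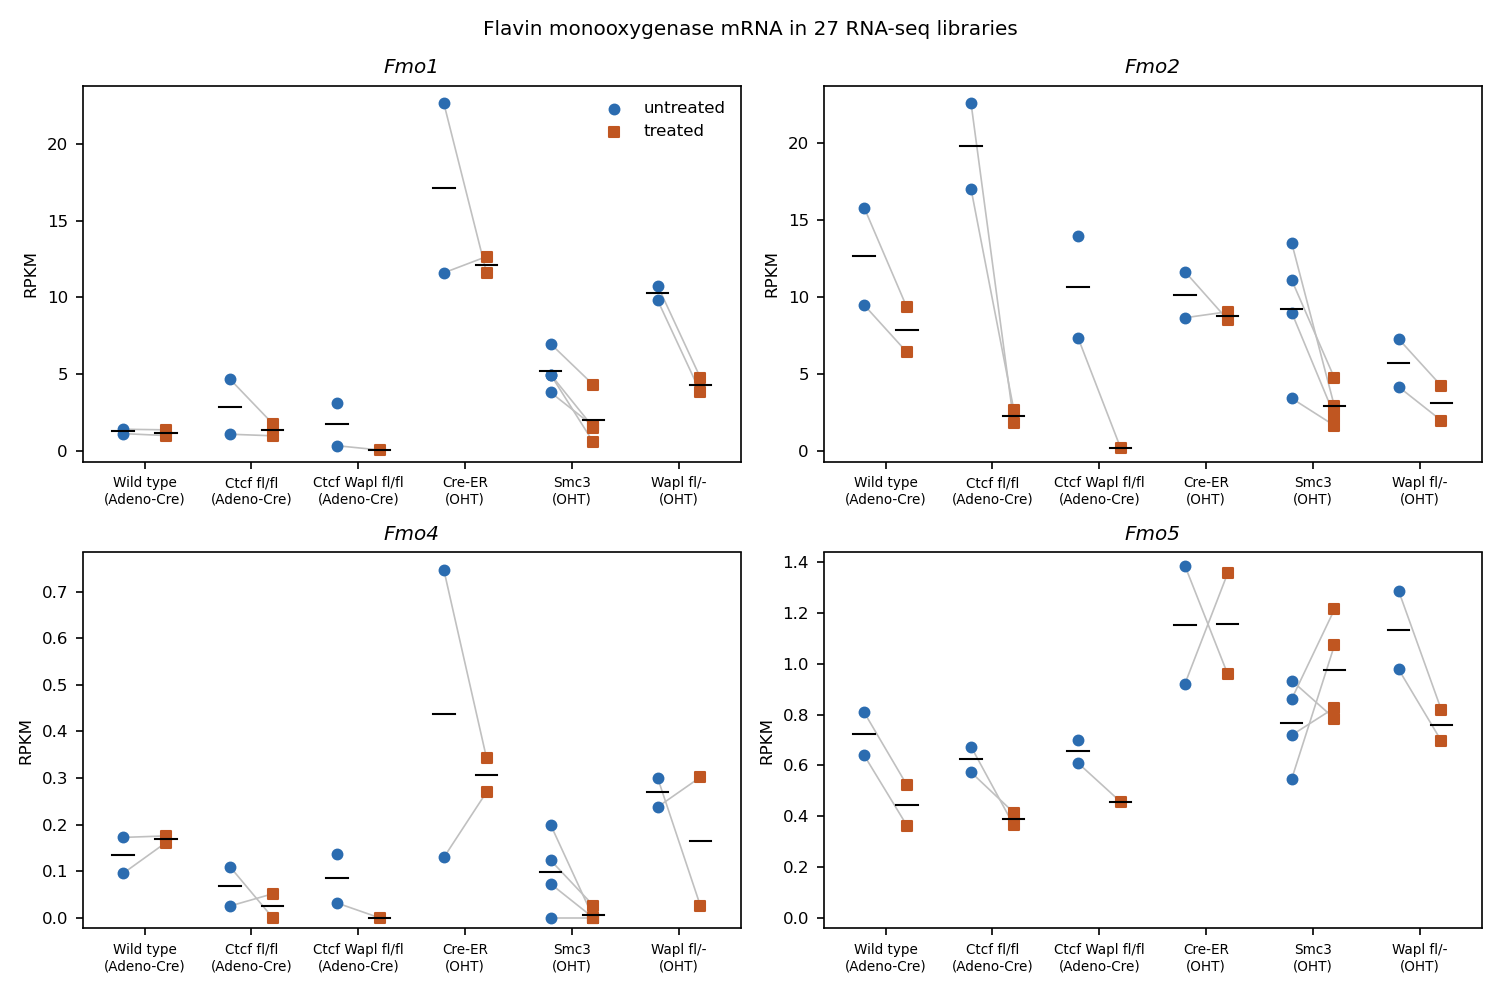
RPKM (vertical axes, linear, a separate scale for each gene) of Fmo1, Fmo2, Fmo4 and Fmo5 in the 27 libraries; circles are untreated and squares treated libraries, grey lines join libraries of the same clone and short black lines are group means. Fmo2 in Ctcf fl/fl cells lies at 17.0 and 22.6 RPKM untreated and at 1.86 and 2.70 RPKM with Adeno-Cre, while Fmo5 stays between 0.363 and 1.39 RPKM throughout.

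After Ctcf deletion, Fmo2 mRNA was lower in both clones by a wide margin, and the other genes of the family differed less. This comparison helped to choose the genes, so its values are a description without a test. Fmo2 was at 22.6 RPKM (3089 reads) untreated and 1.86 RPKM (231 reads) with Adeno-Cre in clone 1, and at 17.0 RPKM (1251 reads) and 2.70 RPKM (195 reads) in clone 2. The treated libraries thus lay 12.2-fold and 6.32-fold below their untreated partners, with no overlap. The fitted log2 difference of RPKM + 1 was -2.67 (SE 0.47). Fmo1 was at 4.69 and 1.79 RPKM in clone 1 and at 1.11 and 1.01 RPKM in clone 2, a fitted log2 difference of -0.55 that rested on clone 1. Without the untreated library of clone 1 it was 0.16, and without that of clone 2 it was -1.26. Fmo5 was at 0.573 and 0.414 RPKM in clone 1 and at 0.674 and 0.364 RPKM in clone 2. Fmo4 had 8 and 0 reads in clone 1 and 1 and 2 reads in clone 2. All treated libraries were below all untreated ones for 2 of the 4 genes, Fmo2 and Fmo5, as for 21.0% of all tested genes. The same 2 genes also separated in this way with Adeno-Cre in wild-type cells, where the share of all tested genes was not counted. In the same libraries the 6 adipocyte markers summed to 36.8 to 47.4 RPKM untreated and 20.5 to 24.9 RPKM with Adeno-Cre. The 9 macrophage markers summed to 320 to 676 and 282 to 428 RPKM, and the 7 endothelial markers to 30.7 to 37.2 and 44.7 to 51.2 RPKM. Of the endothelial markers, 4 stayed below 0.5 RPKM in every treated library. Over the 27 libraries Flt1 reached 46.7 RPKM and Pecam1 at most 0.275 RPKM. Lep was at 0 in 19 of the 27 libraries and Tie1 in 19, and the part of such cells in the result was not tested.

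Adeno-Cre in wild-type cells left a smaller difference of the same sign in Fmo2. Fmo2 was at 9.50 RPKM untreated and 6.44 RPKM treated in clone 2, and at 15.8 and 9.35 RPKM in clone 3. Both treated libraries were below both untreated ones. The log2 difference of -0.60 (SE 0.47) did not pass limma's test (Benjamini-Hochberg adjusted p = 0.551). Fmo1 was nearly level, with log2 differences of -0.02 from 1.44 RPKM in clone 2 and -0.09 from 1.15 RPKM in clone 3. Fmo5 was at 0.809 and 0.522 RPKM in clone 2 and 0.640 and 0.363 RPKM in clone 3, a log2 difference of -0.26 next to -0.22 after Ctcf deletion. By limma, 0 of the 3 tested genes passed and 0 had an unadjusted p below 0.05, where 3.24% of all tested genes were called. With the clone as a block the counts were 0 and 1. As a description, the Fmo2 difference after Ctcf deletion exceeded that of the wild-type control by 2.07 on the log2 scale (SE 0.66).

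Fmo2 also fell when Ctcf and Wapl were deleted together, in clones other than those of the Ctcf cells. It was at 14.0 RPKM (1712 reads) and 7.39 RPKM (433 reads) in untreated clones 3 and 4, and at 0.206 RPKM (13 reads) in the Adeno-Cre library of clone 4, the lowest Fmo2 value of the table. Within clone 4 that is 35.9-fold lower. The log2 difference was -3.22 (SE 0.57, limma, Benjamini-Hochberg adjusted p = 0.0009; with 1 treated library, which is assumed to vary like the other groups). Fmo2 was the only one of the 3 tested genes to pass, where 15.8% of all tested genes were called and 5.34% were called lower. Fitted on these 3 libraries alone, the adjusted p was 0.0763. The difference from wild-type Adeno-Cre was -2.62 (SE 0.74) and missed the threshold (limma, adjusted p = 0.0548), so 0 of the 3 genes passed it (1 at an unadjusted p below 0.05), where 3.87% of all tested genes were called. With the clone as a block, which leaves untreated clone 3 without a partner, it was -2.20 (adjusted p = 0.0134).

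Fmo1 was at 3.13 RPKM and 0.368 RPKM (15 reads) in these untreated cells and at 0.0909 RPKM (4 reads) in the Adeno-Cre library. The treated value is the lowest Fmo1 value of the 27, but the untreated clones were far apart, and the log2 difference of -1.12 (SE 0.64) did not pass (limma, Benjamini-Hochberg adjusted p = 0.260). Without untreated clone 4 it was -1.92 and passed (adjusted p = 0.0418). Fmo5 was at 0.700 and 0.610 RPKM untreated and 0.456 RPKM treated (limma, adjusted p = 0.563). Fmo4 had 9, 1 and 0 reads. The 7 endothelial markers summed to 10.0 RPKM in the treated library and 17.9 to 39.3 RPKM in the untreated ones, with Pecam1 at 0 in 3 of the 27 libraries and Tie1 at 0 in 19; the part of such cells in the result was not tested.

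A separate table, scaled on its own and named for serum stimulation, held 2 further libraries that share the same labels, Ctcf Wapl fl/fl clone 3 with Adeno-Cre. The library numbered 28014 by the laboratory had Fmo2 at 0.525 RPKM, Fmo1 at 0.195, Fmo5 at 0.386 and Fmo4 at 0, with Ctcf at 3.17 and Wapal at 0.902. The library numbered 28018 had Fmo2 at 5.12 RPKM, Fmo1 at 1.01, Fmo5 at 0.151 and Fmo4 at 0, with Ctcf at 7.61 and Wapal at 2.09. In the main table, untreated clone 3 had Ctcf at 9.26 and Wapal at 2.72 RPKM, so the library numbered 28018 stood nearer to untreated cells than its label says. Xist, the X-inactivation RNA, was at 0 in untreated clone 3 and in the library numbered 28014, but at 0.988 RPKM in the library numbered 28018, which goes against their shared clone label. The labels of these 2 libraries mention no serum, and neither library entered a test.

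GRO-seq of the Ctcf Wapl fl/fl cells gave Fmo2 at 4.58 TPM (a length-scaled share of the library; 2 pooled libraries, column sum 200000) untreated and 0.380 TPM with Adeno-Cre, 12.03-fold lower. There are no replicates in this table and its depth is unknown. The other genes of the cluster did not share 1 pattern. Fmo1 was at 1.33 and 1.39 TPM, a nearly level share of each column, which does not show a level amount of nascent RNA. Fmo4 was at 1.19 and 0.551 TPM (2.16-fold lower) and Fmo6 at 1.31 and 0.187 TPM (7.02-fold lower). Fmo5 was at 1.66 and 1.02 TPM. In RNA-seq of other clones of these cells, Fmo6 was at 0.408 and 0.153 RPKM (28 and 5 reads) in untreated clones 3 and 4. It was at 0.283 RPKM (10 reads) in clone 4 with Adeno-Cre. At least 2-fold lower values were seen for 2 of the 4 genes and for 37.3% of 16122 genes with at least 1 TPM in either column, so the count stood near the background. At least 4-fold lower values were seen for 1 of the 4, Fmo2, and for 6.84% of all. Ctcf itself was at 9.83 and 5.94 TPM, Wapal at 16.1 and 8.10 TPM, and Smc3, which is not floxed in these cells, at 7.98 and 3.36 TPM.

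DRB stops polymerases from moving into productive elongation, and its washout releases them. In Adeno-Cre treated cells with DRB for 3.5 h, Fmo1 was at 0.0780 TPM, Fmo4 at 0.0773 and Fmo5 at 0.163 TPM, all below their Adeno-Cre values, after doubling the column because 1 library sums to 100000. Fmo6 went the other way, from 0.187 to 0.349 TPM. After washout, 1 d without DRB, Fmo5 was at 0.752 TPM, closer to its Adeno-Cre value of 1.02, whereas Fmo1 was at 0.0557 and Fmo4 at 0.0736 TPM. Fmo2, already low with Adeno-Cre, was at 0.305 TPM with DRB and 0.160 TPM after washout. A column named for wild-type, which names no library, had Fmo2 at 2.08 TPM, Fmo5 at 0.881, Fmo1 at 0.726 and Fmo4 at 0.274 TPM. The RPKM column beside it equals the mean of the 4 untreated wild-type and Cre-ER RNA-seq libraries in all 20282 genes. Whether the TPM column also holds Cre-ER cells is not given.

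**Figure D2:**
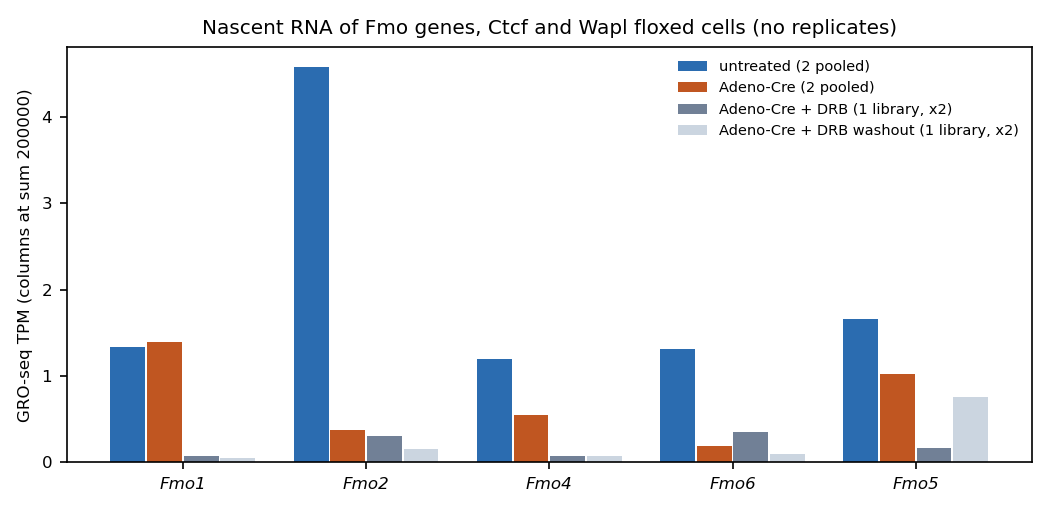
GRO-seq TPM (vertical axis, linear from 0) of 5 Fmo genes in 4 columns of Ctcf Wapl fl/fl cells; the first 2 bars of each gene are columns of 2 pooled libraries, the last 2 are single libraries doubled to the same column sum, and there are no error bars because there are no replicates. Fmo2 goes from 4.58 to 0.380 TPM with Adeno-Cre, and Fmo1 from 1.33 to 1.39 TPM.

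In the libraries labelled Smc3-deleted, both Fmo2 and Fmo1 were lower in all 4 clones. Fmo2 was at 3.44, 9.01, 13.53 and 11.1 RPKM untreated in clones 1 to 4, and at 1.67, 2.32, 2.92 and 4.75 RPKM with OHT. The groups overlapped only through untreated clone 1, the shallowest library. The means were 9.28 ± 4.30 and 2.92 ± 1.33 RPKM (SD, n = 4), and the log2 difference of -1.32 (SE 0.33) passed limma's test (Benjamini-Hochberg adjusted p = 0.0108). It passed in all 8 fits that left out 1 library, but not when fitted on the 8 Smc3 libraries alone (adjusted p = 0.0678).

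Fmo1 was at 6.98, 3.83, 4.98 and 4.99 RPKM untreated and at 4.32, 1.64, 0.578 and 1.54 RPKM with OHT in clones 1 to 4. The treated library of clone 1 lay above the untreated library of clone 2, so the groups overlapped. The log2 difference was -1.15 (SE 0.37, limma, adjusted p = 0.0411), and it no longer passed in 7 of the 8 fits that left out 1 library (largest adjusted p = 0.150). Fmo1 and Fmo2 were thus 2 of the 3 tested genes called lower, where 5.60% of all tested genes were called lower and 15.0% in either direction.

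Fmo5 was at 0.934, 0.719, 0.862 and 0.547 RPKM untreated and 0.784, 0.827, 1.21 and 1.07 RPKM with OHT, and did not pass (limma, adjusted p = 0.359). Fmo4 had 3, 2, 0 and 4 reads untreated and 0, 0, 0 and 1 with OHT. Fmo6, not tested, was higher with OHT in 4 of 4 clones, for example at 0.236 and 0.797 RPKM in clone 4. Against the Cre-ER control, none of the 3 differences passed (0 at an unadjusted p below 0.05, where 1.23% of all tested genes were called). That of Fmo2 was -1.15 (SE 0.57, limma, adjusted p = 0.464) and passed with the clone as a block (adjusted p = 0.0459). The 6 adipocyte markers summed to 28.6 to 46.2 RPKM untreated and 6.65 to 15.6 RPKM with OHT, and the 7 endothelial markers to 12.3 to 21.9 and 1.41 to 10.9 RPKM. The 9 macrophage markers summed to 40.2 to 1611 and 25.3 to 286 RPKM. Lep was at 0 in 19 of the 27 libraries, and the part of such cells in the result was not tested.

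After Wapl deletion, Fmo1 and Fmo2 were lower in both clones, but neither passed the test. Fmo1 was at 9.82 and 10.8 RPKM untreated and 3.85 and 4.79 RPKM with OHT, without overlap, a log2 difference of -1.09 (SE 0.52, limma, Benjamini-Hochberg adjusted p = 0.342). Fmo2 was at 4.19 and 7.30 RPKM untreated and 2.00 and 4.25 RPKM with OHT, with a slight overlap (log2 difference -0.73, SE 0.47, adjusted p = 0.536). Fmo5 was at 1.29 and 0.978 RPKM untreated and 0.818 and 0.696 RPKM with OHT, also without overlap (log2 difference -0.28). How many of all tested genes separated in this way was not counted for this comparison. By limma, 0 of 3 genes passed and 0 had an unadjusted p below 0.05, where 2.43% of all tested genes were called. With the clone as a block 0 passed and 2 had an unadjusted p below 0.05. The macrophage markers summed to 2615 to 3578 RPKM untreated and 819 to 2228 RPKM with OHT, and the adipocyte markers to 76.7 to 89.6 and 23.6 to 55.3 RPKM; their part in these values was not tested.

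Within the labelled clones, OHT in Cre-ER cells without a floxed gene gave no common direction. Fmo1 was at 11.6 and 12.7 RPKM in clone 2 and at 22.6 and 11.6 RPKM in clone 3, and Fmo2 at 8.68 and 9.07 RPKM in clone 2 and at 11.7 and 8.55 RPKM in clone 3. In clone 2 both were slightly higher with OHT, and in clone 3 both were lower. This pairing is uncertain, because the treated and untreated libraries of these clone labels deviated in opposite ways (correlation -0.2). Paired the other way, Fmo2 would go from 8.68 to 8.55 and from 11.7 to 9.07 RPKM. Fmo1 would then be at 11.6 RPKM in both libraries of 1 pair and go from 22.6 to 12.7 RPKM in the other. Fmo5 was at 0.920 and 1.36 RPKM in clone 2 and 1.39 and 0.961 RPKM in clone 3. Fmo4 reached its highest level of the table, 0.746 RPKM from 29 reads, in the untreated library of clone 3. By limma, 0 of the 3 genes passed and 0 had an unadjusted p below 0.05, with or without the clone as a block. Of all 12604 tested genes 0 were called, while 41 had an unadjusted p below 0.05 (187 with the block). Against this control the Fmo2 difference after Wapl deletion was -0.55 (SE 0.66, limma, adjusted p = 1), where 0.143% of all tested genes were called.

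**Figure D3:**
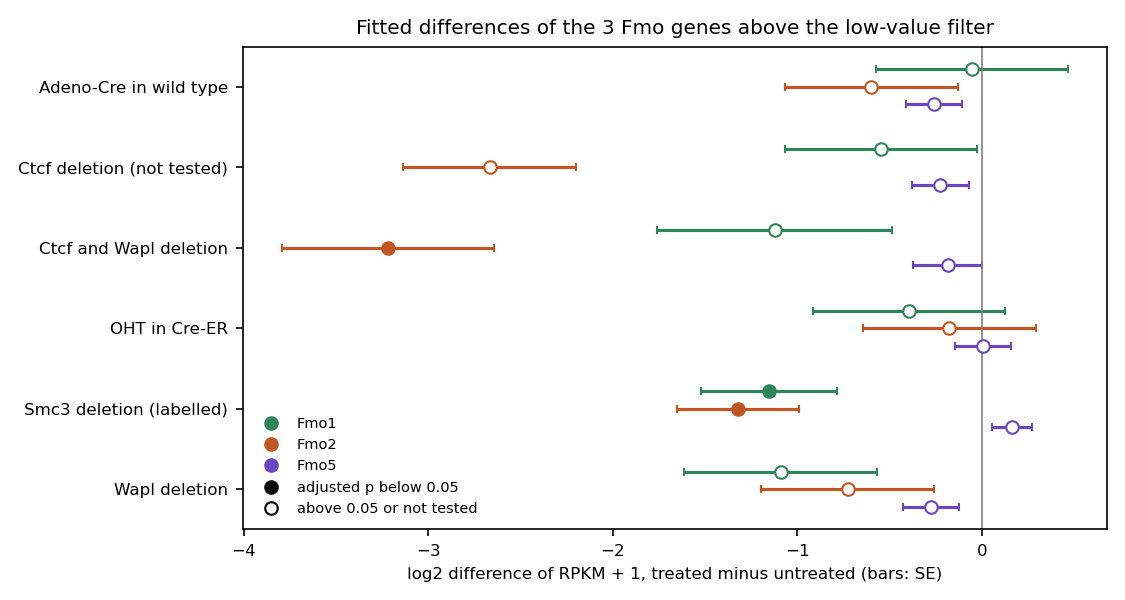
Fitted log2 differences of RPKM + 1, treated minus untreated (horizontal axis, bars are SE from the limma fit), for Fmo1, Fmo2 and Fmo5 in 6 comparisons; filled points passed at an adjusted p below 0.05 and the Ctcf row carries no test. Fmo2 stands at -2.67 after Ctcf deletion and -3.22 after Ctcf and Wapl deletion, against -0.60 with Adeno-Cre in wild-type cells.

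The genes that flank the cluster on chromosome 1 did not all move with Fmo2. Myoc, Gorab and other neighbours were lower with it in some comparisons, and others were higher. Of the 10 protein-coding genes on either side in RefSeq order, all 20 were in the table and 12 were tested, Suco, Pigc, Dnm3, Mettl13, Vamp4, Myoc and Prrc2c on one side and Prrx1, Gorab, Kifap3, Scyl3 and Mettl18 on the other. After Ctcf deletion, as a description, Prrc2c next to the cluster averaged 36.1 RPKM untreated and 41.3 RPKM treated. Prrx1, a mesenchymal homeobox gene and the nearest tested gene on the other side, with the untested Armc11 between them, averaged 61.5 and 55.5 RPKM. Their log2 differences were 0.21 and -0.15. The largest positive difference was that of Suco, at 3.07 and 10.2 RPKM (log2 1.47), followed by Mettl13, a methyltransferase gene, at 7.19 and 11.6 RPKM (log2 0.62).

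Myoc, the gene of the secreted protein myocilin, had the most negative difference among the 12 neighbours after Ctcf deletion. It was at 6.76 and 0.464 RPKM in clone 1 and at 3.27 and 0.399 RPKM in clone 2. In wild-type cells with Adeno-Cre it was lower as well, at 4.79 and 0.753 RPKM in clone 2 and 5.01 and 0.810 RPKM in clone 3. Treated Myoc was thus 14.6-fold and 8.21-fold lower within the Ctcf fl/fl clones and 6.37-fold and 6.19-fold lower within the wild-type clones, where the folds of Fmo2 were 12.2 and 6.32 against 1.48 and 1.69. The log2 differences of RPKM + 1, -2.01 and -1.73 for Myoc, understate this because the treated values lie below 1 RPKM. In wild-type cells 0 of the 12 neighbours passed (limma, 2 at an unadjusted p below 0.05), where 3.24% of all tested genes were called.

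After Ctcf and Wapl deletion, 2 of the 12 neighbours passed, 1 in each direction, near the 15.8% called among all tested genes. Gorab, a Golgi protein gene, fell from 7.84 to 4.21 RPKM (log2 difference -0.76, SE 0.20, limma, Benjamini-Hochberg adjusted p = 0.0128), and Suco rose from 2.78 to 5.24 RPKM (0.76, SE 0.23, adjusted p = 0.0342). Against wild-type Adeno-Cre Gorab passed (-1.16, adjusted p = 0.0135) and Suco did not (adjusted p = 0.262). With the clone as a block 4 passed, 2 in each direction, where 22.8% of all genes were called. In the libraries labelled Smc3-deleted, Gorab was the 1 neighbour that passed, where 15.0% of all tested genes were called. It fell from 9.53 to 4.52 RPKM, with every treated library below every untreated one (log2 difference -0.93, SE 0.11, adjusted p = 3.16e-05). With the block 5 passed, 4 of them lower, where 36.6% of all genes were called. Prrc2c, Mettl13 and Kifap3, like Gorab, were lower in 4 of 4 clones, and Suco and Mettl18 were higher in 4 of 4. After Wapl deletion 0 of 12 passed (limma, 3 at an unadjusted p below 0.05), where 2.43% of all tested genes were called. With the block 1 passed higher and 3 lower, where 14.6% of all genes were called. Pigc, Mettl13, Vamp4, Myoc, Prrc2c, Gorab and Scyl3 were lower in both Wapl clones, and Suco, Dnm3, Prrx1 and Mettl18 were higher in both. In Cre-ER cells 0 passed, and 0 had an unadjusted p below 0.05.

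Around Fmo5, 7 of 10 neighbours were tested, Acp6, Bcl9, Chd1l, Prkab2, Pde4dip, Sec22b and Notch2. Chd1l, a chromatin remodeller gene, fell after Wapl deletion from 4.55 to 1.90 RPKM (log2 difference -0.93, SE 0.18, limma, Benjamini-Hochberg adjusted p = 0.00955), and did not pass against the Cre-ER control (-0.85, adjusted p = 0.308). Acp6 rose after Ctcf and Wapl deletion from 9.16 to 12.8 RPKM (0.44, SE 0.13, adjusted p = 0.0274), and no longer passed with the clone as a block (adjusted p = 0.0506). None of the 7 passed in the libraries labelled Smc3-deleted (limma, 4 at an unadjusted p below 0.05), where 15.0% of all tested genes were called. With the block 4 passed, all of them higher, where 36.6% of all tested genes were called. In wild-type cells with Adeno-Cre 0 passed (2 at an unadjusted p below 0.05), where 3.24% of all tested genes were called. With the block 1 passed higher and 3 lower there, where 23.0% of all tested genes were called.

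**Figure D4:**
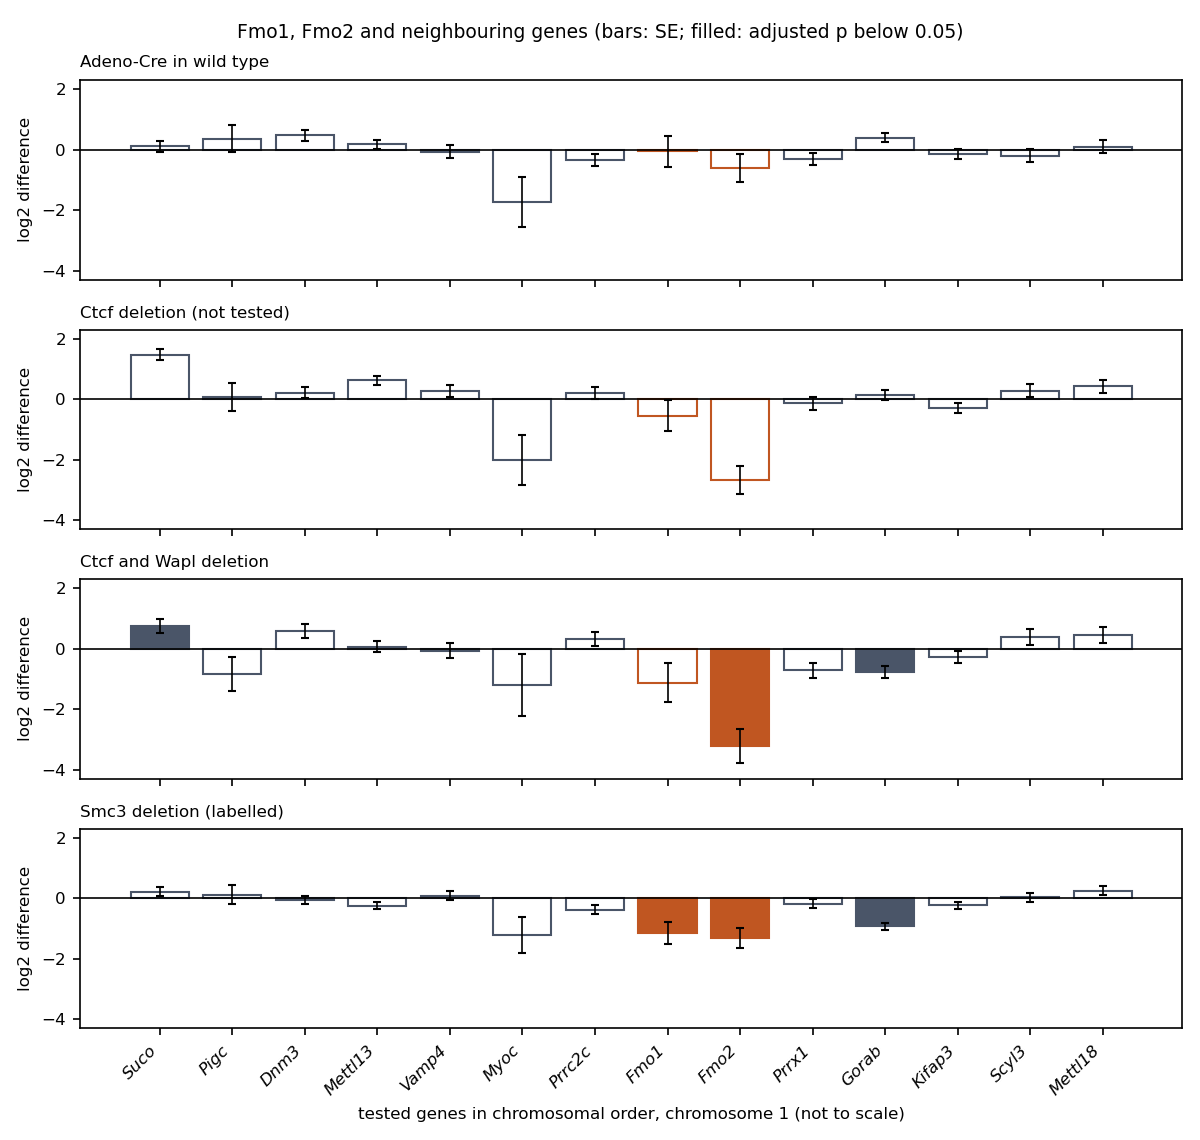
Fitted log2 differences of RPKM + 1, treated minus untreated (vertical axes, error bars are SE), of Fmo1, Fmo2 (orange) and the 12 tested neighbours (grey) in chromosomal order, not to scale, in 4 comparisons; filled bars passed at an adjusted p below 0.05 and the Ctcf panel carries no test. Fmo2 reaches -2.67 and -3.22 in the Ctcf panel and the Ctcf and Wapl panel, while Prrc2c and Prrx1, the nearest tested genes on either side, are at 0.21 and -0.15 after Ctcf deletion and Myoc is at -1.73 in wild-type cells.

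Flavin monooxygenases depend on FAD and NADPH and work beside cytochrome P450s, reductases and conjugating enzymes. Of 55 such genes, 54 were found in the table by symbol (all but Cyb5a) and 51 were tested. In the libraries labelled Smc3-deleted 8 rose and 5 fell (18 and 5 with the clone as a block), where 15.0% of all tested genes were called (36.6% with the block). Against the Cre-ER control 0 rose and 2 fell, Ahr and Cyp7b1, so no rise passed (7 and 5 with the block). Of all tested genes, 1.23% were called against this control (10.7% with the block). The median log2 difference, OHT minus untreated, was 0.19 against 0.07 over all tested genes. Idh1, a cytosolic source of NADPH, rose from 29.4 to 55.3 RPKM (adjusted p = 0.00017, limma), and the aldehyde-oxidising enzymes Aox1 and Aldh1a1 rose from 3.46 to 8.20 and from 8.13 to 22.8 RPKM. Ahr, the aryl hydrocarbon receptor that activates P450 genes, fell from 4.91 to 0.258 RPKM (log2 difference -2.22, SE 0.16, adjusted p = 1.14e-07). Cyp7b1, an oxysterol hydroxylase, fell from 2.19 to 0.467 RPKM, and the reductase gene Cyb5r1 from 74.3 to 38.6 RPKM.

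After Ctcf and Wapl deletion 3 of the 51 rose and 8 fell (8 and 8 with the clone as a block), where 15.8% of all tested genes were called (22.8% with the block). Against wild-type Adeno-Cre 0 rose and 2 fell. The median log2 difference was -0.06 against 0.17 over all. Por, the reductase that feeds electrons to P450s, rose from 48.2 to 104 RPKM, Cyp39a1 from 0.849 to 1.85 RPKM and Akr1b8 from 22.8 to 85.3 RPKM. Ahr fell from 5.92 to 1.33 RPKM, Idh1 from 28.5 to 11.7 RPKM and Cyp1b1, a P450 gene under Ahr control, from 57.2 to 18.7 RPKM (log2 difference -1.55, SE 0.29, limma, adjusted p = 0.0014). After Wapl deletion 1 rose and 2 fell (2 and 6 with the block), where 2.43% of all tested genes were called (14.6% with the block), with a median of 0.00 against -0.01. Against the Cre-ER control 0 passed (limma, 6 at an unadjusted p below 0.05, and 2 higher and 2 lower with the block). Of all tested genes, 0.143% were called against it (2.48% with the block). Aox1 rose from 2.87 to 7.36 RPKM, and Idh1 and Cyp1b1 fell from 34.0 to 18.6 and from 36.4 to 17.9 RPKM. Idh1 thus rose in the libraries labelled Smc3-deleted and fell in both Wapl comparisons. In wild-type cells with Adeno-Cre 0 passed (limma, 5 at an unadjusted p below 0.05, and 4 higher and 2 lower with the block). Of all tested genes, 3.24% were called there (23.0% with the block). In Cre-ER cells 0 of the 51 passed, with 0 at an unadjusted p below 0.05.

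Across the 27 libraries, Fmo1 and Fmo2 followed different genes. The libraries share groups, clones and depth, so the Pearson correlations of log2(RPKM + 1) are a description. Fmo1 was most like Gnas (r = 0.93), Ldb2 (0.92), Ntrk2 (0.91), Angptl1 (0.90) and Vegfc (0.89). Fmo2 was most like Kif26b (0.90), and D8Ertd82e, Fam20a and Cyp1b1 (0.83 to 0.84) were also among its closest. Fmo5 was most like Rbl2 (0.89), Tmem106c, Aldh5a1, Senp7 and Il17rd (0.84 to 0.86). Between the genes themselves r was 0.30 for Fmo1 and Fmo2, 0.62 for Fmo1 and Fmo5 and 0.10 for Fmo2 and Fmo5. Among neighbours, Fmo1 was closest to Myoc (0.78) and Fmo2 to Gorab (0.59).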

How the data were processed

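RNA-seq values were deposited by the authors as RPKM, per the file headers, for 23339 genes in 27 libraries; 2 further libraries stood in a separately scaled table. The authors' GRO-seq tables hold TPM, per the file headers. The submitters' processing notes name mm9, TopHat, Bowtie 0.12.5 and HTSeq without roles. Strand use in counting is not given in the sources used here, and reads of overlapping genes may be mixed. Of the per-sample columns, 0 were left unused, and ChIP-seq samples were not analysed here.

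Read counts were recovered from RPKM steps (99.97% of 18155 genes whole within 0.02 reads), so depth ranged from 7.72 M to 38.63 M reads; counting error alone limits genes with few reads. A gene had to reach 1 RPKM in 2 or more libraries, and limma 3.58.1 under R 4.3.3 (trend, robust) was run for the 12604 that did, on log2(RPKM + 1), which understates the change of low genes. A single model of 12 group means had 15 residual degrees of freedom (7 with clone as block). P-values were adjusted by the Benjamini-Hochberg method across every tested gene, with 0.05 as threshold. The fit was tested on simulated data. Clone numbers come from the genotype labels; treated and untreated libraries of a clone deviated together, with correlations of 0.47 to 0.76, except -0.20 for Cre-ER. The blocked value is given where it changed a call. The members and lists were chosen with earlier results of these data known. Named were all members and family genes, targeted genes, tested neighbours, the 3 pathway genes with the smallest p per direction, and the 5 genes most correlated with each member. Some genes these rules selected are not reported here; counts include them. Alternatives were another pseudocount (0.1), no filter, median-of-ratios scaling, the clone block, the compared groups alone and each library left out.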

Additional observations from a re-analysis of the deposited data

Results flagged for a closer look

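In the 4 libraries labelled Smc3-deleted, Fmo4 was at 0.0261 RPKM (1 read) in clone 4 and at 0 in clones 1 to 3, so the highest library stood apart from the others by Dixon's criterion. A single read separates them.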

How the results depend on the processing

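The counts of genes called depended on the settings as follows. Of the 3 tested Fmo genes, 2 were called in the libraries labelled Smc3-deleted, 1 with a pseudocount of 0.1 or no filter, 0 on the compared groups alone and 1 to 2 with a library left out. After Ctcf and Wapl deletion 1 was called, 0 on the compared groups alone and 1 to 2 with a library left out. Against the Cre-ER control the Smc3 count was 0, and 1 with the replicate block at either pseudocount. Against wild-type Adeno-Cre the Ctcf and Wapl count was 0, and 1 with a pseudocount of 0.1, with no filter or with the replicate block at either pseudocount, and 0 to 1 with a library left out. After Ctcf deletion the treated libraries lay below the untreated ones for 2 genes, for 3 within every clone (the pairing), and for 2 to 4 with a library left out. The Fmo1 difference there turned to 0.16 without untreated clone 1 and was -1.26 without untreated clone 2.

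Of the chromosome 1 neighbours 1 was called in the libraries labelled Smc3-deleted, 2 with median-of-ratios scaling, 5 with the replicate block at either pseudocount and 1 to 2 with a library left out. After Wapl deletion 0 was called, 1 with median-of-ratios scaling and 4 with the block at either pseudocount. After Ctcf and Wapl deletion 2 were called, 4 with the block, 0 on the compared groups alone, 1 among 5 neighbours a side and 0 to 3 with a library left out. Against controls, the Smc3 count of 1 became 0 on the compared groups alone and 0 to 1 with a library left out. The Ctcf and Wapl count of 1 became 2 with the block, 0 on the compared groups alone and 0 to 2 with a library left out. The cause of these changes was not tested.

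In GRO-seq, a 4-fold limit, chosen after seeing the data, left 1 gene of 2. Crossing the Cre-ER clone numbers, also chosen after seeing the data, left 0 genes called in the Cre-ER control and 1335 against it for Smc3, next to 1343 uncrossed. Median-of-ratios scaling shifted the median of all genes by -0.17 for Ctcf and Wapl deletion and by -0.10 for its difference from the control. Fmo4 rested on 29 reads at most, so differences in it were not detectable at this depth.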
